A study of Mus musculus with 32 samples.

Results

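The forkhead genes encode a family of transcription factors, and the protein-coding genes of the GRCm38.p6 RefSeq table with a symbol of the form Foxa1 to Foxs1 were taken as its members, 44 genes of 21887. The rule reads the symbol alone. A peak belonged to a member when its centre lay in the gene body or within 50 kb of it, and each peak was counted 1 time, which gave 1674 distinct deposited positions over 15 lists of peaks. The peaks come from ATAC-seq, in which a transposase cuts open chromatin, in 32 samples of mouse embryonic fibroblasts (MEFs) on the way to induced pluripotent stem cells. The cells received Oct4, Sox2, Klf4 and c-Myc, abbreviated OSKM.

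CTCF shRNA was set against control shRNA at day 0 and in sorted populations: Thy1+ cells of days 3, 6 and 9, SSEA1-Thy1- cells of days 6 and 9, SSEA1+ cells of the same days, and GFP+ cells of day 12. At day 10, cells with CTCF overexpression plus Smarca5 shRNA were set against cells with CTCF overexpression alone, and the list of CTCF overexpression alone against a control overexpression. At day 12, cells with Smarca5 shRNA and no labelled sort were set against control shRNA. CTCF is the zinc finger protein of insulators and domain borders, and Smarca5 the ATPase of ISWI remodelling complexes. Per the labels, CTCF and the shRNAs were brought into OG2-MEFs, which carry a GFP reporter of Pou5f1, by retrovirus, and cells were kept in stem cell medium with vitamin C. Sorted cells came from a TetOn lentivirus system with rtTA and doxycycline, and the vector behind the day 10 and unsorted day 12 cells is not stated. Each group has 1 list of peaks, made from 2 samples, or 3 for Thy1+, so lists of Thy1+, SSEA1-Thy1- and SSEA1+ cells pool days. A replicate check is therefore missing throughout, and p-values are not given.

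Forkhead proteins bind DNA through a winged helix domain, and some of them, the FoxA proteins first of all, can bind sites in closed chromatin and are called pioneer factors. Family members direct tissue formation in the embryo: FoxA in endoderm, FoxC, FoxF and FoxL1 in mesenchyme, FoxI and FoxJ1 in epithelia, and FoxB in the brain. FoxO proteins pass on the state of insulin signalling, FoxM1 drives cell division, and Foxd3 and Foxh1 act in pluripotent cells and the early embryo.

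The promoters below, 250 bases before to 50 after the start, were read from RefSeq sequences on GRCm38.p6, 5' to 3' on the strand of the gene, with each CpG in capitals. Foxi1, Foxi2, Foxn1, Foxr1 and Foxr2 are shown because a peak at their starts was present in the GFP+ control list and absent from the day 0 control list. Foxd3 and Foxo1 were added as contrasts after their values were seen, since they had a peak at the start in 14 and in all 15 lists. The regions are chr9:44440819-44441118 on the minus strand for Foxr1, chr11:78386559-78386858 on the minus strand for Foxn1, chr11:34208040-34208339 on the minus strand for Foxi1 and chr7:135410117-135410416 on the plus strand for Foxi2. Those of Foxr2, Foxd3 and Foxo1 are chrX:153118538-153118837, chr4:99656049-99656348 and chr3:52268087-52268386, all on the plus strand.
Foxr1: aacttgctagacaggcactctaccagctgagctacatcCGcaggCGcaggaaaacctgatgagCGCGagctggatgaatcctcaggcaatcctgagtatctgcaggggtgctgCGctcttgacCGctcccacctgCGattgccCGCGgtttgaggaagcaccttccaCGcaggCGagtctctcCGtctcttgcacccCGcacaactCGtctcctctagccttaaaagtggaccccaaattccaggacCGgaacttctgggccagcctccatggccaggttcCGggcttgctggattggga
Foxn1: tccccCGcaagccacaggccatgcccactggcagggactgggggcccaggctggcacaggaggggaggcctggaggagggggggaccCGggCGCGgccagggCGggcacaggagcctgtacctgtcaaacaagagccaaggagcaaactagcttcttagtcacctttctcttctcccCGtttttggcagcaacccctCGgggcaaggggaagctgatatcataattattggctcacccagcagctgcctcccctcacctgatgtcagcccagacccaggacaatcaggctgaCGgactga
Foxi1: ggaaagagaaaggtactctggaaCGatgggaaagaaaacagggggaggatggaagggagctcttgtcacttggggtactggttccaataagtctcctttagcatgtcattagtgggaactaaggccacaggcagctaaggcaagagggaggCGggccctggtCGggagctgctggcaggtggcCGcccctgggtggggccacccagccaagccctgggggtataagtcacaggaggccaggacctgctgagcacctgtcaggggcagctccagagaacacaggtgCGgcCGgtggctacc
Foxi2: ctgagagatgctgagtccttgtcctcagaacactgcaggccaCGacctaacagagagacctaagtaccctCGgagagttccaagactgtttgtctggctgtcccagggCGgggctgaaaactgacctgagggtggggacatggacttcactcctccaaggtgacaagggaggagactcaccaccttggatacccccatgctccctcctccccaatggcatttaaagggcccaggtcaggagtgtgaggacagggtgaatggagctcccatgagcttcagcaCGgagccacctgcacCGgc
Foxr2: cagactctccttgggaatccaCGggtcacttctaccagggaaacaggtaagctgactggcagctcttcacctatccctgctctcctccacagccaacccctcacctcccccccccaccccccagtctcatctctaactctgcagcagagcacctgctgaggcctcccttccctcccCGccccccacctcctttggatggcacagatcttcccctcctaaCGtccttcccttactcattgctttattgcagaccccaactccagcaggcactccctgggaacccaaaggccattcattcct
Foxd3: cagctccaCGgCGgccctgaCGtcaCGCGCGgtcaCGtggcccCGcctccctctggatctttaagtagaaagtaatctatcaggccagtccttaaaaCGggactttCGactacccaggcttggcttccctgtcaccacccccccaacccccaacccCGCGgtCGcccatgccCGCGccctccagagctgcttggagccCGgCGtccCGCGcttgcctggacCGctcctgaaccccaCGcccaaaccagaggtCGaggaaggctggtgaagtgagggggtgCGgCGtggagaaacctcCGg
Foxo1: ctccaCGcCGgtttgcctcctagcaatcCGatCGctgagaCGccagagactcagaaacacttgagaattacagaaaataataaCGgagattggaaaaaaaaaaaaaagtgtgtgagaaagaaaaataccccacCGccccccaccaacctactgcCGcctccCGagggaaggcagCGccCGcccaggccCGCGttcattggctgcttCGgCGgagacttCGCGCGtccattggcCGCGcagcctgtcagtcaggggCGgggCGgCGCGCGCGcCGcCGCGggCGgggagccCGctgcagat
The Foxr2, Foxi2, Foxi1 and Foxn1 promoters held 3, 5, 6 and 8 CpGs in 300 bases, that of Foxr1 held 16, and those of Foxd3 and Foxo1 held 25 and 31.

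Whole lists held 43618 to 213386 peaks after merging of overlapping intervals, and read depth is unknown. Peaks within 50 kb of forkhead genes numbered 554 with CTCF shRNA and 552 in the control at day 0. Sorted Thy1+ cells had 810 with CTCF shRNA against 744 in the control, SSEA1-Thy1- cells 690 against 667, SSEA1+ cells 745 against 611, and GFP+ cells 541 against 464. At day 10 they numbered 335 with CTCF overexpression plus Smarca5 shRNA, 376 with CTCF overexpression and 374 in its control, and at day 12 they numbered 240 with Smarca5 shRNA and 246 in the control. Per 100 kb of window the median forkhead gene had 8.40 peaks in the GFP+ control list and 8.59 in the day 0 control list, while the median of all genes had 6.24 and 8.22. Marker genes differed in the direction the labels name: near 10 pluripotency genes, Pou5f1 among them, there were 144 peaks in the GFP+ control list and 83 in the day 0 control list, with a start peak at 10 and 5 of them. Near 10 fibroblast genes, Thy1 among them, there were 74 and 191 peaks, with a start peak at 6 and 10.

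Most forkhead starts were open throughout. A start peak is a peak within 1 kb of a start listed by RefSeq, or, for the 16 members without a listed start, within 1 kb of either gene end, which can also be the 3' end. Of the 44 genes, 31 had a start peak in all 15 lists, 70.5% beside 57.8% of all genes. Another 2 had none in any list, 4.55% beside 26.1% of all genes, and 11 had it in some. A listed start was known for 28 of the 44 members and for 17492 of all 21887 genes. Either gene end thus served for a larger part of the family, and its share in these differences was not tested. The 31 include genes with no known task in fibroblasts, such as Foxa1 and Foxa2, the endoderm pioneers, and Foxj1 of motile cilia. The 2 without one were Foxp3, the regulator of regulatory T cells, and Foxn3, a repressor linked to cell cycle checkpoints, though an end of the Foxn3 gene body, away from the listed start, had a peak in all 15 lists. In the reverse case, Foxa1 had a peak in all 15 lists at its listed start and in none at the ends of its gene body.

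**Figure D1:**
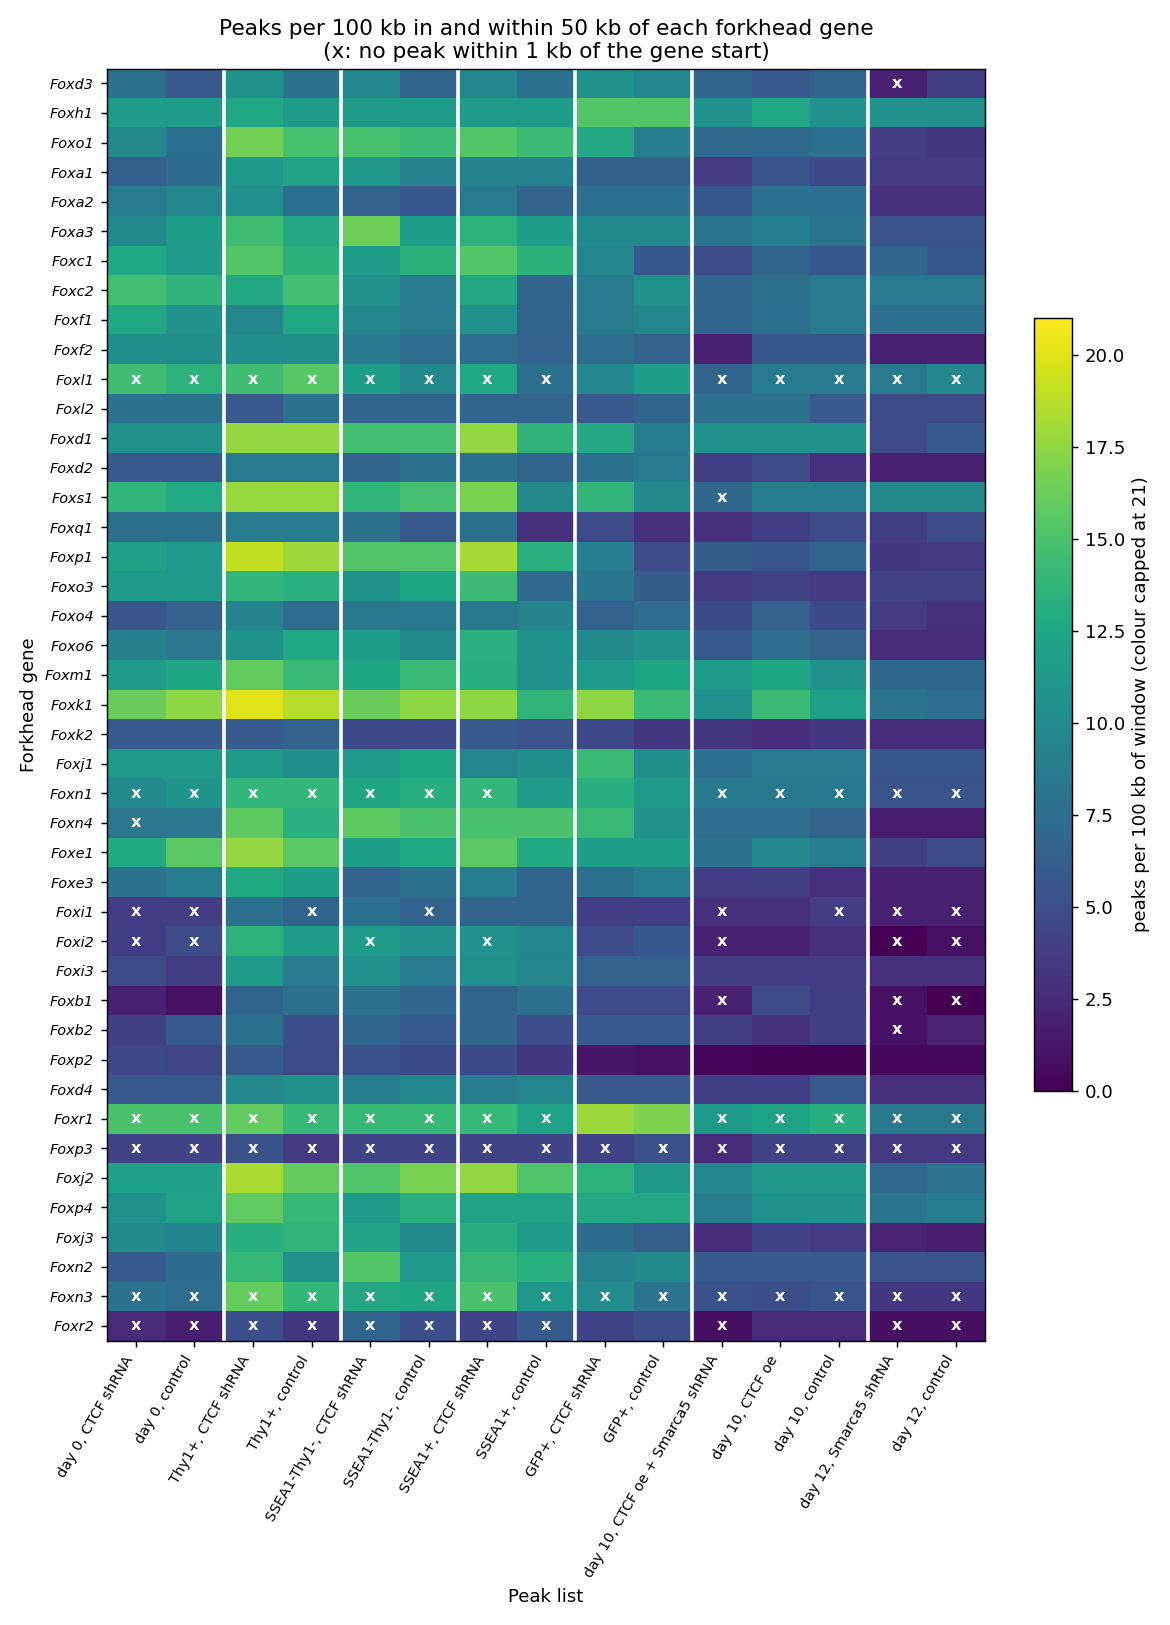
Peaks per 100 kb of window (colour) for the forkhead genes reported by name (rows, by role) in the 15 peak lists (columns, treated list left of its control), with x where no peak lay within 1 kb of the start. The rows without any x had a start peak in all 15 lists, and Foxp3 and Foxn3 in none.

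Forkhead promoters with a start peak in all lists were rich in CpG. Over 33 RefSeq promoters of 28 members, the 21 with a peak in all 15 lists had a median observed over expected CpG of 0.787, the 9 with a peak in 1 to 14 lists had 0.282, and the 3 with none had 0.470. Promoters of all genes in the same classes had 0.786, 0.310 and 0.160. Median GC content in the 3 forkhead classes was 67.7%, 59.0% and 47.7%. The CpG ratio of the shown promoters was 0.151 for Foxr2, 0.198 for Foxi2, 0.232 for Foxi1, 0.272 for Foxn1 and 0.619 for Foxr1, beside 0.793 for Foxd3 and 1.10 for Foxo1. Foxr1, with a start peak in 2 lists, had the same ratio as Foxa3, with a start peak in 15.

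**Figure D2:**
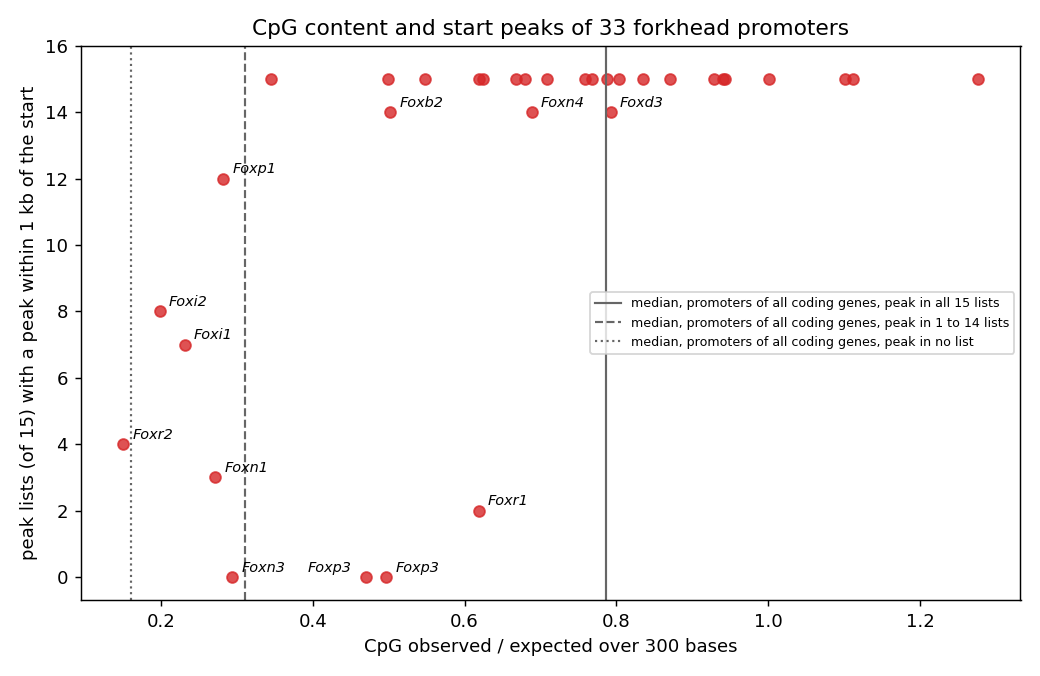
Observed over expected CpG in 300 bases (x axis) and the number of lists with a peak within 1 kb of that start (y axis) for 33 promoters of 28 forkhead genes, 1 point each, with the medians of all coding promoters in 3 classes as vertical lines (0.786, 0.310 and 0.160). Foxr2, Foxi2, Foxi1 and Foxn1 sit at 0.151 to 0.272 with 3 to 8 lists, and Foxr1 at 0.619 with 2.

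Short words in these promoters were searched on both strands, and a match is a description of letters only. The CTCF core AGGGGGC was in 24.2% of the 33 forkhead promoters and in 12.9% of 21263 promoters of all genes. More than 1 promoter of Foxp1 held it, and none of the 7 shown did. Median GC content was 62.7% over the 33 and 56.3% over all promoters, and its part in this difference was not tested. CCAAT was in 45.5% and 38.2%, the AP-1 word TGANTCA in 6.06% and 6.99%, the forkhead word TGTTTAC in 3.03% and 3.01%, TATAAA in 9.09% and 12.6% and CCACACCC in 3.03% and 3.63%. The octamer ATGCAAAT was in no forkhead promoter and in 1.66% of all. Of the 7 promoters shown, Foxi1, Foxi2, Foxn1 and Foxr1 held CCAAT 1 time each and Foxo1 held it 3 times, and Foxr2 and Foxd3 held none of the words. The lone forkhead word was in the promoter of Foxa1, itself a forkhead gene.

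The control course compared the GFP+ control list with the day 0 control list, and here the family ended with more start peaks than it had begun with. Of 8 forkhead genes without a start peak at day 0, 6 had one in GFP+ cells, where 12.2% of all such genes did. None of the 36 with a start peak at day 0 was without it in GFP+ cells, where 5.17% of all such genes were. In total 42 forkhead genes had a start peak in the GFP+ control list and 36 in the day 0 control list, while for all genes the numbers were 14865 and 14756. In bulk samples, fewer cells with an open site and less openness per cell cannot be told apart.

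The 6 genes were Foxi1 and Foxi2, of the ectoderm and of inner ear or kidney epithelia, Foxn1, the thymic epithelium and hair gene behind the nude mouse, Foxl1 of gut mesenchyme, and Foxr1 and Foxr2, of which the human FOXR2 is known from tumours of the nervous system. They did not appear together. A peak at chr7:135410510-135410909, 343 bp from the Foxi2 start, was in the Thy1+ control list and in all later control lists. Peaks at chr11:34207938-34208337 over the Foxi1 start and at chr11:78386635-78387034, 227 bp from the Foxn1 start, were in the SSEA1+ and GFP+ control lists. Peaks at chr9:44441046-44441445 for Foxr1, chrX:153118807-153119206 for Foxr2 and chr8:121128411-121128810 for Foxl1 were in the GFP+ control list of the course alone. The Foxl1 peak, 926 bp from the lower gene end, did not count within 500 bp, Foxr1 and Foxl1 had a peak in both lists within 2.5 kb, and Foxr2 had none at the ends of its gene body.

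Around the starts the course ran the other way for many members. In the GFP+ control list 17 of 44 genes had more peaks within 50 kb than in the day 0 control list and 22 had fewer, beside 26.7% and 57.5% of all genes. Of 552 forkhead peaks at day 0, 280 were absent from the GFP+ list, 50.7% (95% interval 46.5% to 55.0%), beside 61.9% near any gene. Of 464 in GFP+ cells, 192 were absent at day 0, 41.4%, beside 42.8%. Intervals are exact Clopper-Pearson ones and cover counting error over peaks only. Without Foxp1, the gene with the most peaks, the absent share was 45.2%.

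**Figure D3:**
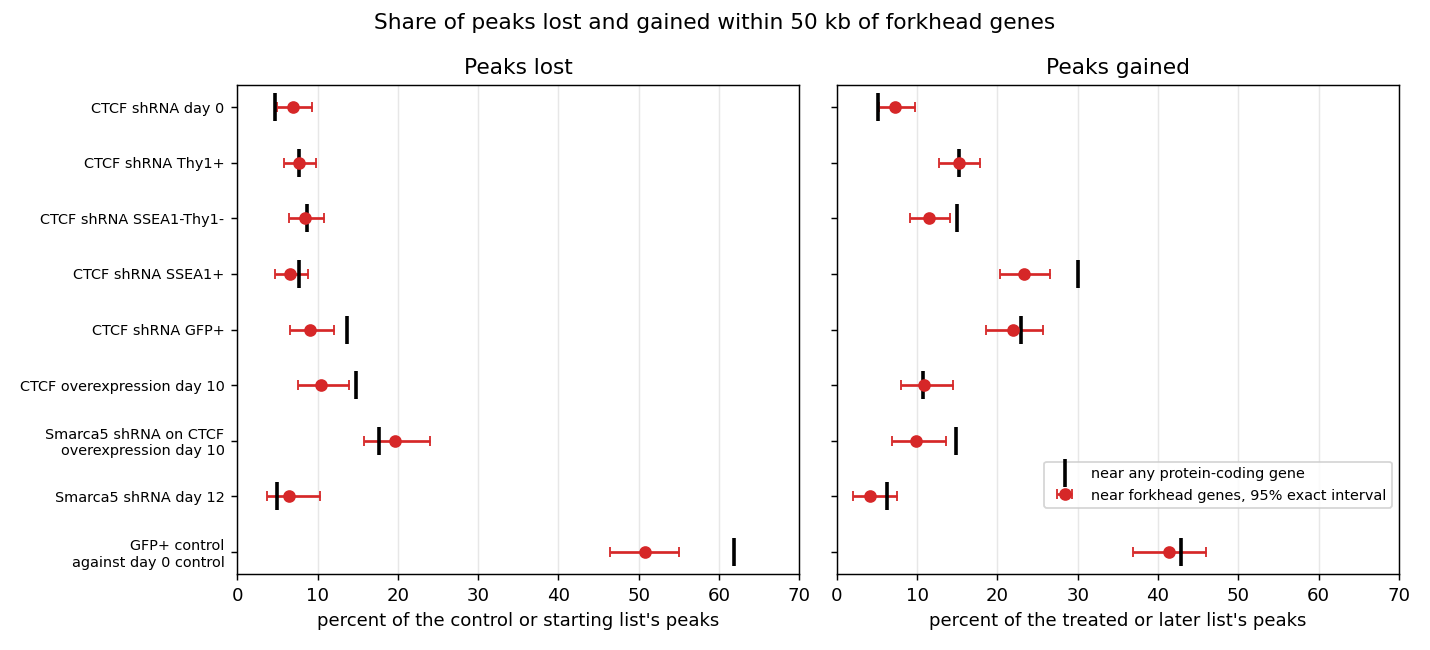
Share of peaks lost (left, percent of the control or starting list) and gained (right, percent of the treated or later list) for 9 comparisons, as points with exact 95% intervals for peaks within 50 kb of forkhead genes and black bars for peaks within 50 kb of any gene. In the control course 50.7% of forkhead peaks were lost, left of the bar at 61.9%, and with CTCF shRNA in SSEA1+ cells 23.4% were gained, left of the bar at 30.0%.

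Of the 280 peaks lost, 102 lay near mesoderm and mesenchyme members, 66 of them near Foxp1. Near these 11 genes there were 96 peaks in GFP+ cells and 160 at day 0, and 10 of the 11 genes had fewer. The lost share was 63.75%, beside 61.9% near any gene. Without Foxp1 the other 10 genes had 62 and 81 peaks, and 36 of the 81 were lost, 44.4% (33.4% to 55.9%). Foxp1, a repressor widely made in muscle, lung, blood and brain, had 79, 125, 106, 93 and 34 peaks in control cells at day 0, Thy1+, SSEA1-Thy1-, SSEA1+ and GFP+. Its count was thus highest in Thy1+ cells and lowest in GFP+ cells, the longest and the shortest control list of the course. Foxc1, a regulator of mesenchyme, eye and vessels, had 12, 14, 14, 14 and 6. On the same chromosome Foxq1, known for hair and for epithelial plasticity, had 8, 9, 6, 3 and 3. Foxf2 of gut and brain pericyte mesenchyme, which lies between them, had 11, 11, 8, 7 and 7. The windows of Foxq1 and Foxf2 overlap, so these genes can share peaks. In the chromosome 8 cluster, Foxc2 had 14, 15, 9, 7 and 11, Foxf1 had 11, 13, 9, 7 and 10, and Foxl1 had 14, 16, 10, 8 and 12. These 3 genes lie within 50 kb of each other and share most of these peaks, so they count largely as 1 locus, with its lowest values in SSEA1+ cells.

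The pluripotency and early embryo members had more peaks in GFP+ cells than at day 0. Near Foxd3, Foxh1 and Foxo1 there were 42 and 32 peaks, and all 3 genes had more, beside 26.7% of all genes. Of the 42 peaks 18 were gained, 42.9%, beside 42.8% near any gene. Of the 32 peaks 8 were lost, beside 61.9% near any gene. The gained share was thus near that of all genes, and the lost share was below it. Foxd3, which in mouse is needed to keep the epiblast and stem cells, had 6, 8, 7, 8 and 10 peaks along the course, its highest count in GFP+ cells. Foxh1, the partner of Smads in Nodal signalling, had 12 in each of the 4 lists up to SSEA1+ and 16 in GFP+ cells, in a window with 12 other coding genes. Foxo1, the insulin-responsive FoxO that stem cells also need, had 14, 27, 26, 26 and 16, nearly the same from Thy1+ to SSEA1+ and lower at both ends.

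FoxO members differed among themselves. Foxo3, known for stress resistance and quiescence, had 22, 26, 24, 14 and 12 peaks, and so differed most from Foxo1 in SSEA1+ cells. With Foxo4 and Foxo6 the group had 49 peaks in GFP+ cells and 53 at day 0. Other large loci also had their lowest counts in GFP+ cells: Foxp2, the neural gene tied to human speech, had 28, 31, 30, 22 and 6, and Foxj3, which in mouse acts in muscle and testis, had 18, 26, 19, 22 and 12. Foxn3 had 36, 66, 59, 53 and 38, so its counts at both ends were close. Among small loci, Foxb1 of the hypothalamus had 1, 8, 7, 8 and 5, a low count at day 0 alone. Foxm1 of mitosis had 14, 16, 16, 12 and 14, and Foxk1, a glycolysis and muscle progenitor regulator, had 28, 30, 28, 22 and 23.

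**Figure D4:**
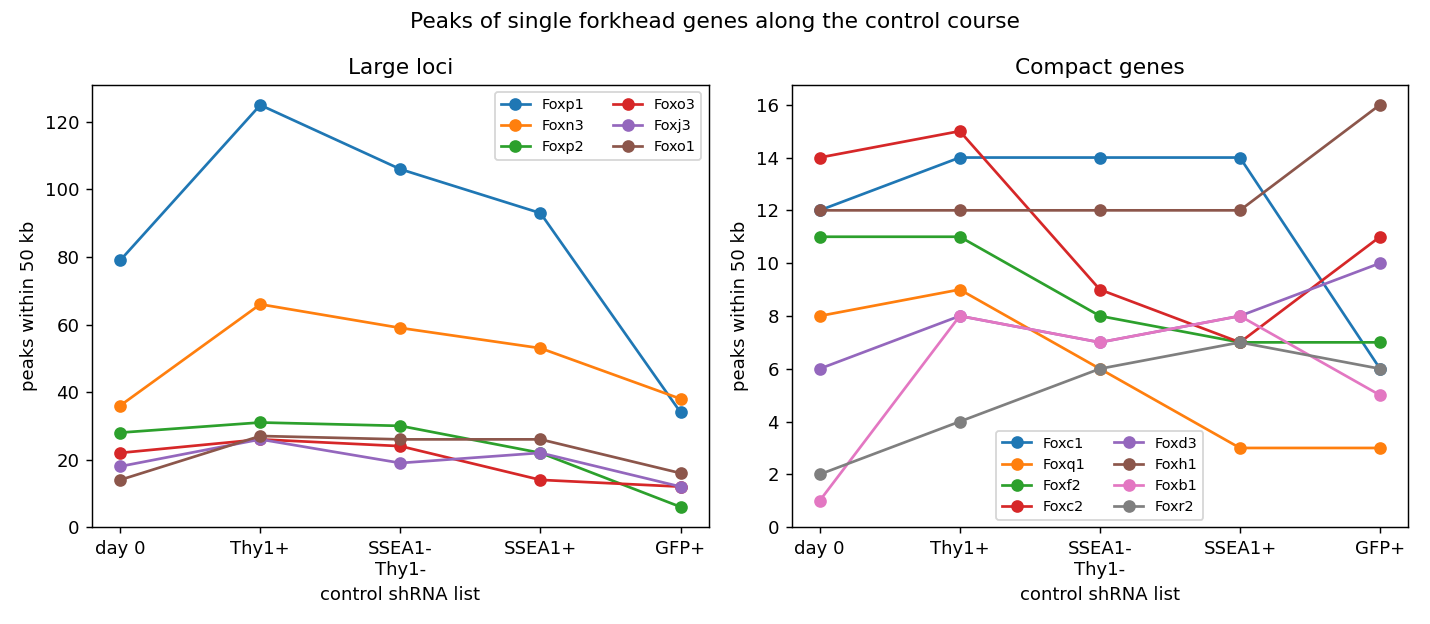
Peaks within 50 kb (y axis, from 0) of 6 forkhead genes in large loci (left) and 8 in compact ones (right) in the 5 control shRNA lists in their order, 1 line a gene and 1 list a point. Foxp1 stands at 125 in Thy1+ cells and 34 in GFP+ cells, and Foxh1 and Foxd3 have their highest counts, 16 and 10, in GFP+ cells.

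The remaining members spread around no common order. The 3 endoderm pioneers had 26 peaks in GFP+ cells and 31 at day 0, Foxa1 with 8, 13, 10, 10 and 7 along the course and Foxa2 with 10, 8, 6, 7 and 8. The 8 epithelial, ciliated and ectodermal genes had 77 and 74 and the 6 neural genes 46 and 65. Of the 35 neural peaks lost 23 lay near Foxp2, and 2 of the 6 genes had more peaks and 2 fewer. The 3 genes grouped as immune, Foxp3, Foxj2 and Foxp4, had 40 and 39, of which Foxp3 had 6 and 5. The 3 cell cycle and metabolism genes had 42 and 51 and the 4 others 71 and 67. Near any protein-coding gene there were 79784 peaks in GFP+ cells and 119861 at day 0. Foxj1 had 12, 11, 13, 11 and 11.

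The steps of the course share their lists with each other and with the comparisons above. From day 0 to Thy1+, 35 genes had more peaks and 5 fewer, beside 75.7% and 7.12% of all genes, and to SSEA1-Thy1- 8 had more and 30 fewer, beside 14.9% and 64.3%. To SSEA1+ 10 had more and 22 fewer, beside 18.9% and 49.6%, and to GFP+ 14 had more and 23 fewer, beside 19.9% and 61.8%. The 3-sample Thy1+ list is also the longest of the control lists, so its high counts go with list size. The GFP+ control list is the shortest of the course, 91337 peaks against 153962 at day 0. The part of list size in its low counts was not tested. At the last step Foxp1 had 34 peaks in GFP+ cells, against 93 in SSEA1+ cells, and Foxp2 had 6, against 22.

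Joined over the 10 day 0 and sorted lists, the forkhead peaks made 981 sites. Sites open in all 5 control lists made up 24.7% (95% interval 22.0% to 27.5%), beside 18.6% of the 206686 sites near all genes. Sites open at day 0 that closed and stayed closed made up 27.6% (24.8% to 30.5%), beside 34.7%, and sites closed at day 0 that opened and stayed open 17.4%, beside 14.7%. Sites open only between the ends of the course were 20.8%, beside 22.0%. The classes differed in position: 20.2% of the 242 sites open in all 5 lists lay at a start, against 0.738% of the 271 that closed, of which 54.6% lay in gene bodies away from starts. Counting starts of any coding gene, the shares were 42.1% and 2.58%, beside 36.8% and 2.90% for sites near all genes. Foxp1 and Foxn3 held 90 of the 271 closing sites, 33.2%. Of the 155 Foxp1 sites, 12 were open in all 5 lists, 64 closed after being open at day 0, 20 opened and 51 were open only in between. Of the 271 closing sites 120 were last open in Thy1+ cells, 44.3%, and of the 171 opening sites 90 were first open there, 52.6%, beside 50.2% and 47.3% near all genes.

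CTCF shRNA at day 0 differed from the control at few forkhead peaks, though both shares were above those near any gene. With CTCF shRNA 15 genes had more peaks and 13 fewer, beside 26.3% and 22.1% of all genes. Of 552 control peaks 38 were lost, 6.88% (4.92% to 9.33%), beside 4.65%, and of 554 CTCF shRNA peaks 40 were gained, 7.22% (5.21% to 9.70%), beside 5.09%. Foxp1 had 84 peaks with CTCF shRNA and 79 in the control, Foxo1 18 and 14, Foxe1 of thyroid and palate 13 and 16, the hepatic Foxa3 11 and 13, and Foxb2 4 and 6. At the starts, Foxn4, a gene of retina and spinal cord, lacked with CTCF shRNA the peak it had in the control and in all other 13 lists, where 1.21% of all genes with a start peak lost it. No forkhead gene gained one, where 1.78% of all genes without one did.

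In Thy1+ cells the family held more peaks with CTCF shRNA, at the rate of all genes. There 27 genes had more and 11 fewer, beside 55.8% and 16.7%. The lost share was 7.66%, beside 7.75%, and the gained share 15.2%, the same as near all genes. Foxn3 had 76 peaks with CTCF shRNA and 66 in the control, Foxp1 133 and 125, Foxp2 38 and 31, Foxn2 21 and 16 and Foxa2 11 and 8. The Foxi1 start peak, which control cells first had in SSEA1+ cells, was in the CTCF shRNA list already here, where 5.69% of all genes without a start peak gained it, and no start peak was lost, where 0.999% were. With gene ends for all genes no such difference was counted for Foxi1. Its listed start is also an end of its gene body, so that setting kept this start and added a peak at the 3' end. It therefore does not test the difference at the start.

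In SSEA1-Thy1- cells 23 genes had more peaks with CTCF shRNA and 13 fewer, beside 48.8% and 18.6%. The gained share was 11.4% (9.17% to 14.1%), beside 15.0% near any gene, and the lost share 8.40%, beside 8.63%. Foxn2 had 23 peaks with CTCF shRNA and 17 in the control, Foxa3 18 and 13, Foxj3 23 and 19 and Foxd3 10 and 7, while Foxo3 had 21 and 24. Foxi1 again had its start peak with CTCF shRNA alone, beside 4.94%, and Foxi2 had its own in the control alone, beside 1.44%. With gene ends for all genes only the Foxi2 call was counted, as the peak at the 3' end of Foxi1 then counted in the control.

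More forkhead genes had a higher count with CTCF shRNA in SSEA1+ cells than in any other pair. With CTCF shRNA 32 forkhead genes had more peaks and 5 fewer, beside 71.9% and 7.17% of all genes. Of 745 CTCF shRNA peaks 174 were absent from the control, 23.4% (20.4% to 26.6%), beside 30.0%, and of 611 control peaks 40 were lost, 6.55%, beside 7.67%. Of the 174, 141 were open in the day 0 control list, 81.0%, beside 81.8% of such sites near all genes, and of the 40 lost sites 4 were, 10.0%, beside 15.7%. The family thus stood below the rate of all genes in the share gained and near it in where those sites had been open.

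Foxp1 had 127 peaks with CTCF shRNA and 93 in the SSEA1+ control, with 37 gained, of which 34 were open at day 0. Foxo3 had 28 and 14, with 15 gained and 12 of them open at day 0, against 26 and 24 peaks in the Thy1+ and SSEA1-Thy1- controls. Foxn3 had 71 and 53, Foxp2 30 and 22, and Foxs1, of pericytes, 17 and 10, with 6 of its 7 gained peaks open at day 0. Foxc2 had 13 and 7, Foxf1 11 and 7, Foxl1 13 and 8 and Foxq1 8 and 3. Near the 11 mesoderm and mesenchyme genes there were 221 peaks with CTCF shRNA and 163 in the control, and 10 of the 11 had more. Of the 221, 63 were gained, 28.5%, beside 30.0% near any gene. Without Foxp1 these genes had 94 and 70 peaks, with 27.7% gained (18.9% to 37.8%). Foxi2 and Foxn1 lacked with CTCF shRNA the start peaks they had in the control, 2 of 39, beside 1.41% of all genes, and none was gained, beside 8.29%. With gene ends for all genes only the Foxi2 call was counted, as a peak at the 3' end of Foxn1 then counted in the CTCF shRNA list.

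The whole SSEA1+ list was longer with CTCF shRNA, 183640 peaks, against 135749 in the control. Marker lists moved with it: fibroblast genes had 197 peaks and 113 (10 of 10 genes more), haematopoietic genes 86 and 57 (5 of 5 more), endothelial genes 81 and 58 (5 of 5 more), keratinocyte genes 35 and 22 (2 of 4 more), endoderm genes 103 and 82 (5 of 8 more, 1 fewer), neural genes 64 and 58 (4 of 5 more, 1 fewer) and pluripotency genes 125 and 116 (6 of 10 more, 2 fewer). Start peaks were at 9 and 8 of the 10 fibroblast genes, 4 and 3 of the 5 haematopoietic genes, 3 and 3 of the 5 endothelial genes, 1 and 1 of the 4 keratinocyte genes, 6 and 5 of the 8 endoderm genes and 5 and 4 of the 5 neural genes. Of the 10 pluripotency genes 6 had a start peak with CTCF shRNA and 7 in the control, Nanog in the control alone. The part of list length or of other cell types in the forkhead counts was not tested.

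In GFP+ cells the start peaks of all 42 genes were the same in both lists, where 1.34% of all genes lost theirs and 4.23% gained one, and the difference lay around them. There 19 genes had more peaks with CTCF shRNA and 13 fewer, beside 48.1% and 19.5%. The lost share was 9.05% (6.60% to 12.0%), beside 13.7%, and the gained share 22.0%, beside 23.0%, or 18.2% without Foxp1. Foxp1 alone had 63 peaks with CTCF shRNA and 34 in the control, with 32 gained. Of these 32, 16 were open in the day 0 control list, 28 in the Thy1+ control list and 18 in the SSEA1+ control list. Of all 119 gained forkhead sites 59 were open in the day 0 control list, 49.6%, beside 48.8% near all genes. The Foxp1 count at day 0 was thus near both shares. Shares near all genes were not counted for the Thy1+ and SSEA1+ control lists. Foxn3 had 48 and 38, Foxo1 23 and 16, Foxk1 28 and 23 and Foxc1 10 and 6. The fibroblast genes had 94 peaks with CTCF shRNA and 74 in the control, with a start peak at 7 and 6 of 10, and the pluripotency genes 151 and 144, with a start peak at 10 and 10. Their part in the Foxp1 count was not tested.

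**Figure D5:**
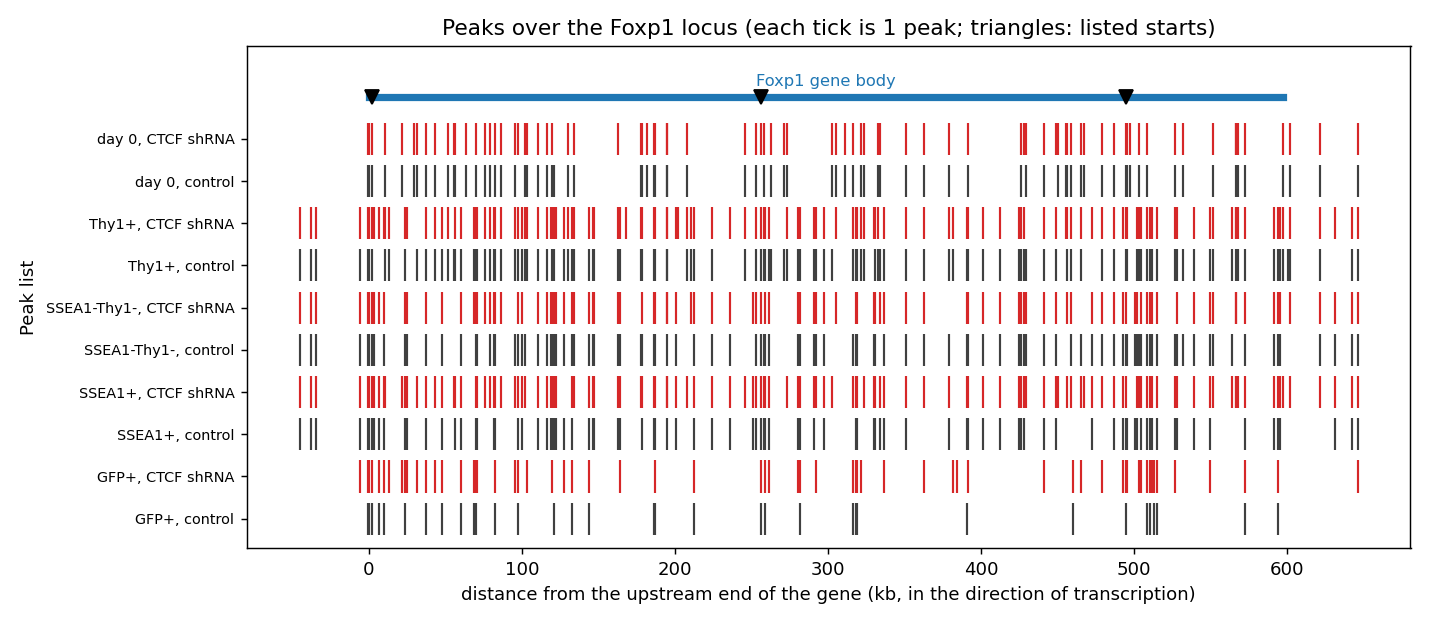
Peaks over the Foxp1 locus in the 10 day 0 and sorted lists (rows, CTCF shRNA in red above its control in grey), by distance in kb from the upstream end of the gene (x axis), each tick 1 peak, with the gene body in blue and 3 RefSeq starts as triangles. The 63 ticks of the GFP+ CTCF shRNA row and the 34 of its control are both spread over the whole gene, as are the 127 and 93 of SSEA1+ cells.

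Foxp1 lies at chr6:98925342-99522746 on the minus strand, 597405 bp long with no other coding gene within 50 kb. Of its 3 RefSeq starts, those at 99520993 and 99028298 had a peak within 1 kb in all 15 lists. The start at 99266515, with a CpG ratio of 0.282, had it in 12, all but the day 0 control list and both unsorted day 12 lists.

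Few sites differed in the same direction in several of the 5 CTCF shRNA pairs, which share no list. In 3 or more pairs 8 of 981 forkhead sites were gained and 1 was lost, beside 1.23% and 0.232% of sites near all genes, so these counts are not above the background. The site gained in 4 pairs, all but GFP+, lay in the Foxp1 body at chr6:98956177-98956576 and was closed in all 5 control lists. A site outside Foxd3 at chr4:99650296-99650695 was gained at day 0, Thy1+ and SSEA1-Thy1- and opened along the control course. The site lost in 3 pairs lay near Foxe1 at chr4:46339544-46339943 and was open in all 5 control lists. Another Foxe1 site, chr4:46345391-46345790, was gained in Thy1+, SSEA1+ and GFP+ cells and lost at day 0.

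CTCF overexpression at day 10 left the total near the control, 376 peaks against 374, with 16 genes higher and 14 lower, beside 26.1% and 31.3% of all genes. Of 374 control peaks 39 were lost, 10.4%, beside 14.8%, and of 376 overexpression peaks 41 were gained, 10.9%, beside 10.7%. Foxp1 had 40 peaks with CTCF overexpression and 47 in the control and Foxd4 4 and 6, while Foxk1 had 23 and 19, Foxh1 13 and 11 and Foxd2 of limb and kidney mesenchyme 5 and 3. Foxi1 had a start peak with CTCF overexpression and not in the control, where 3.57% of all genes without one gained it, and no forkhead gene lost one, where 1.22% did. With gene ends for all genes the Foxi1 difference was hidden by a peak at its 3' end in the control.

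With Smarca5 shRNA added to CTCF overexpression most members had fewer peaks. The total was 335 with Smarca5 shRNA and 376 without, 6 genes had more and 26 fewer, beside 22.0% and 39.5% of all genes, while the whole lists held 66321 and 67561 peaks. Of 376 peaks 74 were lost, 19.7%, beside 17.7%, and of 335 only 33 were gained, 9.85% (6.88% to 13.6%), beside 14.9%. Start peaks went at 5 of 39 genes, beside 4.25%: Foxb1 of the hypothalamus, Foxi1, Foxi2, Foxr2 and Foxs1. No start peak was gained, where 1.84% of all genes without one gained it. With gene ends in place of listed starts, Foxr2 had no peak in any list. The Foxi1 difference was then hidden by a peak at its 3' end.

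Foxk1 had 17 peaks with Smarca5 shRNA and 23 without, Foxf2 2 and 6, Foxb1 2 and 5 and Foxj3 5 and 8, while Foxp1 had 43 and 40. The 3 FoxA genes had 19 and 24, each with fewer, and Foxd3, Foxh1 and Foxo1 together had 31 and 32. The 11 mesoderm and mesenchyme genes had 89 and 97, with 8 genes lower and 1 higher. Without Foxp1 the other 10 had 46 and 57. Of the 57 peaks 22.8% (12.7% to 35.8%) were lost, beside 17.7% near any gene. Of the 46 peaks 4.35% (0.531% to 14.8%) were gained, beside 14.9%. The pluripotency genes had 73 peaks with Smarca5 shRNA and 105 without (9 of 10 fewer, none more), with a start peak at 7 and 9, and the fibroblast genes 61 and 65, with a start peak at 7 and 6. Their part in the forkhead counts was not tested.

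The day 10 lists share the CTCF overexpression list, so they are given side by side as states of 429 sites. All 3 lists held 283 of them, 66.0%, beside 64.7% of such sites near all genes. With CTCF overexpression alone 22 were open, 5.13%, beside 5.53%, and 52 were closed with added Smarca5 shRNA alone, 12.1%, beside 9.09%. Of the 41 sites gained with CTCF overexpression, 22 were absent again with Smarca5 shRNA, 53.7% (37.4% to 69.3%), beside 62.5% near all genes, and of the 39 lost with it 19 were back, 48.7% (32.4% to 65.2%), beside 57.8%. The Foxi1 start peak was 1 of the 22.

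Smarca5 shRNA at day 12, without a CTCF construct, gave small differences in the shortest lists. There were 240 peaks with Smarca5 shRNA and 246 in the control, and 6 genes had more and 10 fewer, beside 14.9% and 12.8%. The lost share was 6.50%, beside 4.99%, and the gained share 4.17%, beside 6.29%. Foxd3 had 2 peaks with Smarca5 shRNA and 4 in the control, Foxp1 23 and 25, Foxb2 1 and 2, Foxb1 1 and 0 and Foxc1 7 and 6. Foxd3 and Foxb2, a neural gene, lost their start peaks, 2 of 35, beside 1.15% of all genes. Each call held at 1 of the other distances tried: Foxd3 within 500 bp and Foxb2 within 2.5 kb. With gene ends for all genes only the Foxb2 call was counted. That setting kept the listed start of Foxd3 and added its 3' end, so it does not test the Foxd3 call.

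Genes around the forkhead factors were described from lists of Hedgehog, FoxO and Nodal signalling. Near 14 Hedgehog genes, upstream of FoxF and FoxL1 in mesenchyme, there were 181 peaks in GFP+ control cells and 249 at day 0, with 5 genes higher and 8 lower. Near 22 genes that control FoxO or are its known targets there were 263 and 393, with 5 higher and 16 lower. Near 14 genes of Nodal signalling and Foxh1 partners there were 166 and 185, with 8 higher and 5 lower. Of all genes 26.7% were higher and 57.5% lower. Among the Nodal genes, Tdgf1 and Lefty1 had a start peak in the GFP+ control list and not in the day 0 control list. The same held for Dhh of the Hedgehog list and Pik3ca of the FoxO list. At day 0 a start peak was at 10 of 14 Nodal, 11 of 14 Hedgehog and 20 of 22 FoxO list genes. Of all genes without a start peak at day 0, 12.2% had one in the GFP+ control list. With CTCF shRNA in SSEA1+ cells the Hedgehog list had 298 peaks, against 240 in the control (9 of 14 higher), the FoxO list 475, against 359 (20 of 22 higher), and the Nodal list 240, against 187 (12 of 14 higher), beside 71.9% of all genes. With Smarca5 shRNA on CTCF overexpression they had 133 against 139, 210 against 207 and 118 against 133, beside 57428 against 59341 near all genes.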

How the data were processed

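Tools named in the submitters' processing notes are MACS2, Picard, SAMtools, Bowtie2, cutadapt, Trim Galore and FastQC, and the builds are mm10 and GRCm38. Which versions, filters and peak threshold applied, whether reads were shifted for the transposase and how samples were joined into 1 list was not given in the sources used here. As deposited by the authors, the 15 lists hold 400 bp intervals as chromosome, start and end. The deposited score column is 0 throughout, so peaks were neither ranked nor filtered, and depth is unknown.

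Overlapping intervals were merged within a list, and peaks of different lists counted as shared from 1 bp of overlap. Lost peaks have no overlapping peak in the treated or later list, and gained peaks none in the control or starting list. Genes come from RefSeq tables of GRCm38.p6. A start listed there was known for 28 forkhead genes, and either gene end was used for the other 16. CpG observed over expected is the CpG count times the length over the product of the C and G counts. Shares near all protein-coding genes, counted the same way, are given as the background. Each list is 1 value per group, so no test was run and intervals are exact Clopper-Pearson ones over peaks. The scripts were tested on simulated lists with known overlaps.

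The members and all gene lists were chosen with earlier results of these data known. Genes named are, per pair, those with a start peak in 1 of the 2 lists and the 5 with the largest difference in peaks, the 8 with the largest difference along the control course, and a set chosen by role. Others were named after their values were seen, and 1 member is counted but not reported by name here. Alternatives were windows of 20 kb and 100 kb, starts within 500 bp and 2.5 kb, overlap of the larger part of a peak, unmerged intervals, and, chosen after seeing the data, gene ends for all genes and leaving out Foxp1. Python 3.11.15, numpy 2.4.6, pandas 2.3.3, scipy 1.17.1 and matplotlib 3.10.9 were used.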

Additional observations from a re-analysis of the deposited data

How the results depend on the processing

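The lost and gained shares of all 9 comparisons were near their reported values, within the interval of each, with windows of 20 kb or 100 kb, with overlap required over most of the shorter peak and with intervals not merged (18 of 18 shares in each case). Leaving out Foxp1, chosen after seeing the data, moved 2 of 18: the gained share in GFP+ cells with CTCF shRNA was 18.2% in place of 22.0%, and the lost share of the control course 45.2% in place of 50.7%. The same choice was made for the mesoderm and mesenchyme members. Counts of genes with a start peak in 1 list of a pair are small and depend on what a start is. Within 500 bp they were, with CTCF shRNA, 2 for Thy1+, 4 for SSEA1-Thy1- and 4 for SSEA1+ cells, in place of 1, 2 and 2, as Foxb1 and Foxf1 joined. At day 12 with Smarca5 shRNA the count was 1 within 500 bp and 1 within 2.5 kb, in place of 2. With gene ends for all genes, chosen after seeing the data, the counts were 0, 1 and 1 in those CTCF shRNA pairs, 0 with CTCF overexpression in place of 1, 3 with Smarca5 shRNA on CTCF overexpression in place of 5, and 1 at day 12. For Foxi1 and Foxd3 that setting keeps the listed start and adds the 3' end. It can therefore hide their differences but does not test them. No paired analysis was possible because each group has 1 list of peaks and the results come from no test. For the same reason no replicate could be left out, and no stricter peak threshold could be tried with scores of 0.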

Other observations

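The Foxi1 start peak differed in 4 of the 8 treated pairs. With gene ends for all genes, which keep this start and add the 3' end, no difference was counted in these 4. A peak was then in 11 lists, and that setting does not test the difference at the start. At the listed start it was present in 7 lists: with CTCF shRNA in Thy1+, SSEA1-Thy1-, SSEA1+ and GFP+ cells, in the SSEA1+ and GFP+ controls, and with CTCF overexpression at day 10. It was absent from both day 0 lists, the Thy1+ and SSEA1-Thy1- controls, the day 10 control, the list of CTCF overexpression plus Smarca5 shRNA and both unsorted day 12 lists. The Foxi2 start peak was in 8 lists, in all 4 sorted controls, with CTCF shRNA in Thy1+ and GFP+ cells, and at day 10 with CTCF overexpression and in its control. Foxl1 and Foxr1 had a start peak in the GFP+ lists alone, with CTCF shRNA and in the control, and neither had it in the day 10 or unsorted day 12 lists.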
